A study of Mus musculus with 6 samples.

Results

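Amino acid transporters were taken as the genes of 7 solute carrier families, Slc1, Slc3, Slc6, Slc7, Slc36, Slc38 and Slc43, by symbol alone, with the imprinted gene Slc38a4 left out. Of 17710 genes listed in any of the 6 libraries, 55 were members. There were 17 in the Slc6, 12 in the Slc7, 10 in the Slc38, 7 in the Slc1, 4 in the Slc36, 3 in the Slc43 and 2 in the Slc3 family. The choice by symbol also brings in carriers of other substrates, such as the monoamine transporters Slc6a2, Slc6a3 and Slc6a4, the creatine transporter Slc6a8 and the nucleobase transporter Slc43a3. The 3 ES libraries came from mouse embryonic stem cells of strain 129/Ola, kept on gelatin in the medium labelled N2B27-2iLIF. The 3 XEN libraries came from extraembryonic endoderm cells of strain ICR, kept in RPMI1640 with 15% FBS and the additions labelled Glut and BME. No further treatment is labelled, and libraries of a group are named A, B and C. Strain, medium and cell type differ together between the groups and cannot be told apart.

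Cells take up amino acids through overlapping sets of membrane carriers. Some couple uptake to sodium or protons and concentrate their substrates, while others exchange one amino acid for another. Several Slc7 proteins are light chains that reach the cell surface only when bound to an Slc3 heavy chain, as in the CD98 heterodimer of Slc3a2. A few members sit on lysosomes, where amino acids are sensed by the mTORC1 kinase, and when amino acids run short the kinase GCN2 and the factor ATF4 raise the transcription of several carriers. The yolk sac endoderm, to which XEN cells are related, is the tissue through which the early rodent embryo is fed.

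Library totals ran from 20675311 to 22375875 expected counts, and members took 0.255% to 0.258% of these counts in ES cells, against 0.330% to 0.351% in XEN cells. The cell labels matched their markers: 8 pluripotency genes summed to 5662 to 5804 CPM (counts scaled to library size) in ES libraries, against 189 to 211 CPM in XEN libraries, and 10 extraembryonic endoderm genes to 348 to 358 and 23865 to 26276 CPM. Of 8 fibroblast or feeder markers, Col3a1 and Prrx1 were at 0 in ES libraries, and the sum was 7.42 to 7.74 CPM in ES, against 7.60 to 9.56 CPM in XEN cells. Sums were 61.3 to 65.7 and 5.06 to 5.92 CPM for 8 trophoblast markers, with Hand1 at 0 in both, and 96.3 to 101 and 14.5 to 14.8 CPM for 7 neural markers, with Neurog2 at 0 in ES. Tfap2c made up most of the ES trophoblast sum, at 58.7 ± 2.33 CPM. The trophoblast markers went both ways: Cdx2, Gata3 and Esx1 were called higher in XEN cells, and Tfap2c, Krt7 and Ascl2 lower. Tubb3 made up most of the ES neural sum, at 71.0 ± 2.15 CPM. Visceral endoderm markers, 7 in all, summed to 2.00 to 2.54 CPM in ES, against 991 to 1408 CPM in XEN cells. Cubn, at 1291, 885 and 911 CPM in the XEN libraries, made up most of that sum. Of the others, Hnf4a averaged 71.9, Ttr 28.4 and Apob 4.81 CPM in XEN cells, and Afp 0.319, Apoa1 0.630 and Amn 0.848 CPM. Of 7 mesoderm and definitive endoderm markers Cer1 was at 0 in both groups and Mesp1 in XEN, with sums of 16.3 to 18.4 and 22.8 to 29.7 CPM. The part of such cells in the results was not tested. In bulk RNA, fewer expressing cells and less RNA per cell cannot be told apart. No label says whether the 3 libraries of a cell type stem from different cultures, so the p-values reflect only how far these libraries vary, possibly for technical reasons.

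Most transporter genes with enough counts differed between the cell types, in both directions and often by a large factor. Of the 55 members, 41 passed the filter on low counts. The edgeR quasi-likelihood test called 21 of them higher and 16 lower in XEN cells at an adjusted p under 0.05. Over all 13581 genes tested, 42.0% were called higher and 46.7% lower, and 88.7% in either direction. The total of called members, 37 of 41 or 90.2%, was near that background. The median log2 fold change was 0.56 for tested members and -0.07 for all tested genes. In the test against a 2-fold change 16 members were called higher and 9 lower, 25 in all, where the background was 19.3% and 23.4% of all tested genes, 42.7% in all. CPM of the groups did not overlap for 21 members higher and 16 lower in XEN cells, the same 37 that were called, beside 42.4% and 47.0% of all tested genes. Since a gene could pass the filter through 1 group alone, these counts do not stand for the 14 members under it. Those were Slc1a6, Slc1a7, Slc3a1, Slc6a3, Slc6a4, Slc6a5, Slc6a13, Slc6a18, Slc6a19, Slc6a21, Slc7a15, Slc36a2, Slc38a8 and Slc38a11, and none of them had more than 15 counts summed over the libraries of a group.

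**Figure D1:**
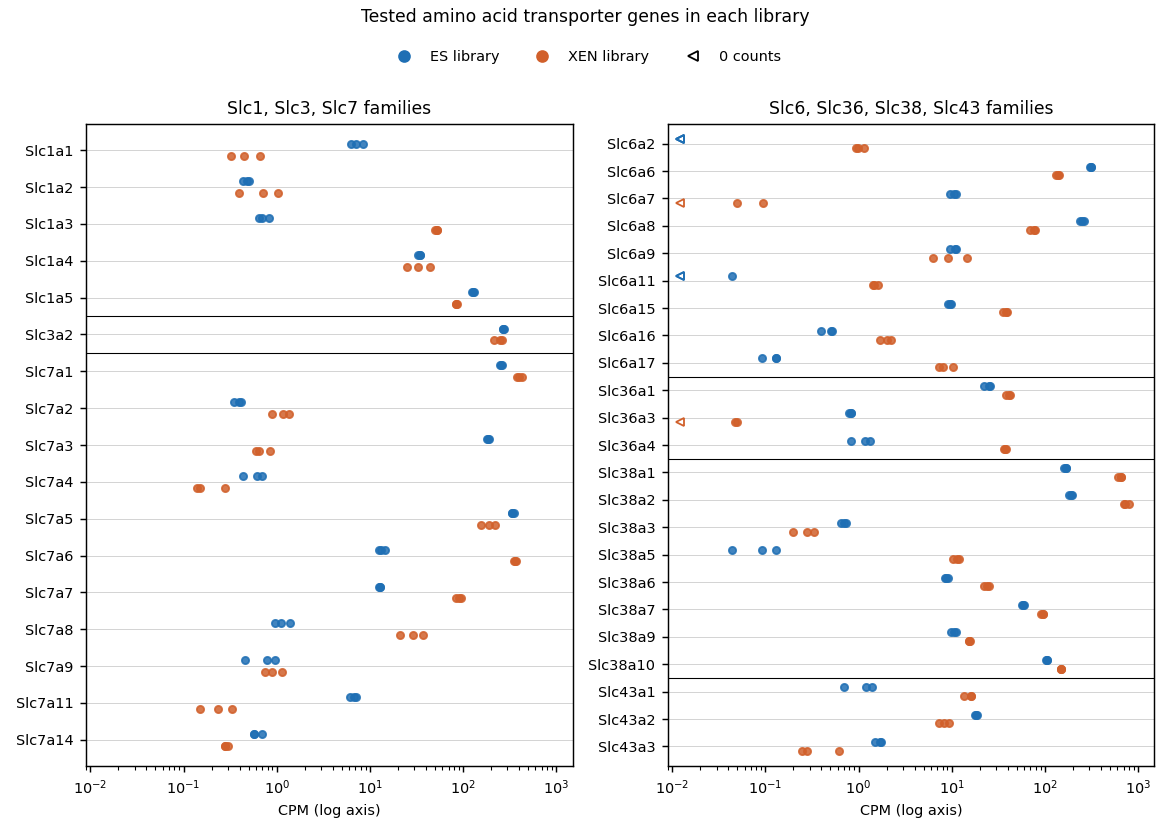
CPM (log axis) of 40 tested transporter genes in each library, by family; each point is 1 library and open triangles at the left edge mark 0 counts. ES and XEN points do not overlap for 36 of these 40 genes, and wide gaps are seen for Slc7a3, Slc6a7, Slc1a3, Slc38a5 and Slc36a4.

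In both cell types a few carriers held most of the family's transcripts per length. FPKM, the authors' fragments scaled to gene length and library size, allows levels of different genes to be compared. The 10 members with the highest FPKM held 90.0% of the summed member FPKM in ES and 84.4% in XEN cells, and 7 of them were the same in both: Slc3a2, Slc7a5, Slc7a1, Slc1a5, Slc38a1, Slc38a2 and Slc38a10. The other 3 were Slc7a3, Slc6a8 and Slc6a6 in ES and Slc7a6, Slc7a7 and Slc38a7 in XEN cells. In ES cells the order by FPKM began with Slc3a2 at 114 ± 1.20, Slc7a5 at 105 ± 2.48, Slc7a3 at 89.0 ± 1.92 and Slc6a8 at 68.0 ± 3.33 (SD, n = 3). Among the first 10 in ES cells, only the neighbours Slc38a10 and Slc38a1 overlapped in their library values. In XEN cells Slc38a2 led at 155 ± 10.4 FPKM, apart from all others, followed by Slc7a6 at 93.7 ± 2.27, Slc3a2 at 93.1 ± 9.22 and Slc38a1 at 86.7 ± 3.17. The last 3 overlapped with their neighbours, as did Slc7a1, Slc7a5 and Slc7a7 behind them. By family, the Slc38 genes made up 17.2% ± 0.292 in ES and 40.1% ± 0.564 in XEN libraries of the summed member FPKM, and the Slc6 genes 19.4% ± 0.384 in ES and 7.28% ± 0.328 in XEN libraries. The sum over all members was 679 ± 4.25 in ES and 793 ± 28.2 in XEN cells.

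The CD98 heavy chain gene differed little between the cell types, while its light chain genes differed widely. Slc3a2 encodes the heavy chain 4F2hc, which carries its light chains to the plasma membrane. It was at 275, 271 and 272 CPM in the ES libraries and 216, 248 and 262 in the XEN libraries. The difference was small, although the groups did not overlap (log2 fold change -0.17 ± 0.08 (SE), edgeR adjusted p = 0.0138). The other heavy chain, rBAT, is encoded by Slc3a1, which had at most 2 counts in a library. Its exons share 601 bases with Prepl on the opposite strand.

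Slc7a5 encodes LAT1, the exchanger of large neutral amino acids such as leucine. It was at 334, 339 and 351 CPM in the ES libraries and 156, 189 and 222 in the XEN libraries. All XEN libraries were lower than any ES library, and the XEN libraries also differed among themselves (log2 fold change -0.85 ± 0.15 (SE), edgeR adjusted p = 0.00363). Slc7a6 encodes y+LAT2, a light chain that exchanges cationic for neutral amino acids together with sodium. It was at 13.1, 14.6 and 12.6 CPM in the ES libraries and 370.1, 349 and 362 in the XEN libraries. The XEN values lay far above all ES values (log2 fold change 4.74 ± 0.07 (SE), edgeR adjusted p = 4.41e-25). Slc7a7, for the related y+LAT1, was at 12.6, 12.9 and 12.7 CPM in the ES libraries and 95.2, 90.4 and 84.2 in the XEN libraries (log2 fold change 2.82 ± 0.05 (SE), edgeR adjusted p = 7.7e-21). Its exons share 232 bases with Oxa1l on the opposite strand, which went from 139 ± 1.74 to 149 ± 5.79 CPM, and the sources used here do not say whether the counting used strand.

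Slc7a8, for LAT2, a light chain with a wider range of neutral substrates than LAT1, was at 1.11, 1.39 and 0.956 CPM in the ES libraries and 37.0, 29.3 and 21.2 in the XEN libraries. It rose in XEN cells (log2 fold change 4.65 ± 0.28 (SE), edgeR adjusted p = 9.91e-05), with XEN library A highest and C lowest. Slc7a11, for xCT, which brings in cystine in exchange for glutamate, fell from 6.65 ± 0.460 to 0.237 ± 0.0901 CPM (log2 fold change -4.77 ± 0.24 (SE), edgeR adjusted p = 3.23e-14). In counts it had 147, 141 and 162 in the ES libraries and 7, 5 and 3 in the XEN libraries. Slc7a9, the partner of rBAT, was at 0.734 ± 0.252 CPM in ES and 0.927 ± 0.198 in XEN cells and was not called (edgeR adjusted p = 0.329).

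The make-up of the light chains differed between the cell types. Slc7a5 held 90.4% ± 0.442 in ES and 27.0% ± 4.22 in XEN libraries of the summed FPKM of Slc7a5, Slc7a6, Slc7a7, Slc7a8 and Slc7a11. The y+LAT genes Slc7a6 and Slc7a7 together held 8.69% ± 0.418 in ES and 69.4% ± 3.19 in XEN libraries. The summed light chain FPKM was 114, 116 and 118 in the ES libraries and 193, 194 and 201 in the XEN libraries. Divided by the FPKM of the heavy chain gene, that sum was 0.981, 1.02 and 1.04 in the ES libraries and 2.33, 2.02 and 2.00 in the XEN libraries. The XEN ratios were thus all above the ES ratios. These are levels of RNA, and protein and transport were not measured.

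**Figure D2:**
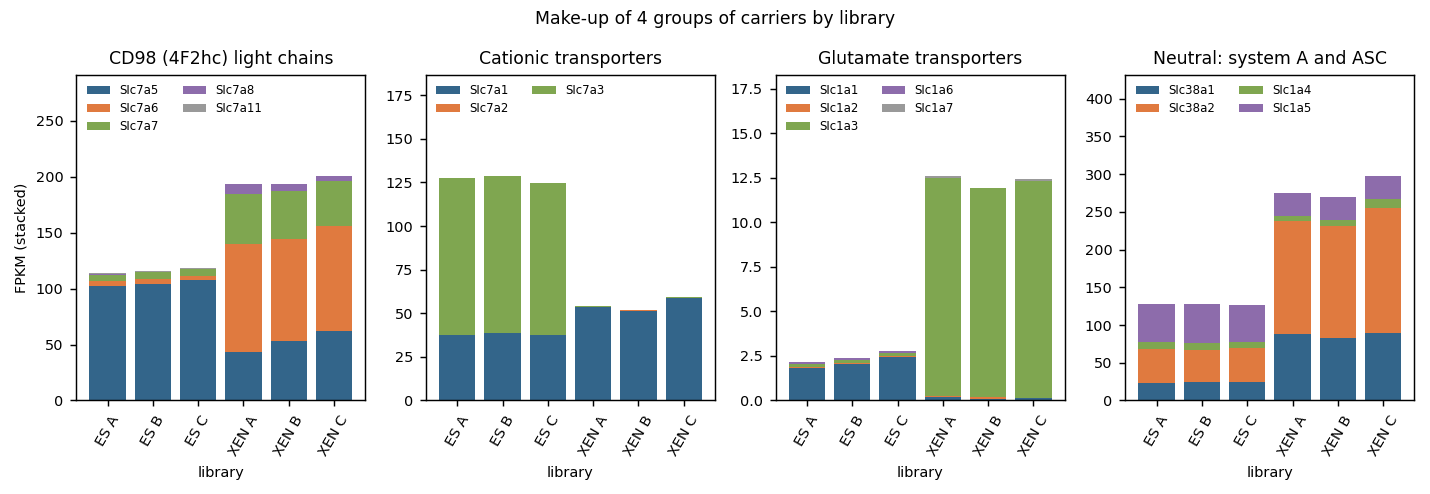
FPKM of the genes of 4 groups of carriers, stacked for each of the 6 libraries, on a linear axis that starts at 0 and differs between panels. Slc7a5 makes up most of the light chain bar in ES libraries and Slc7a6 with Slc7a7 in XEN libraries, Slc7a3 is seen in ES libraries alone at this scale, and Slc1a3 fills the glutamate transporter bar in XEN libraries.

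Among the carriers of cationic amino acids, Slc7a3 was high in ES cells and near 0 in XEN cells and Slc7a1 was higher in XEN cells. Slc7a3 encodes CAT-3, a transporter of arginine and lysine. It was at 188, 188 and 182 CPM in the ES libraries and 0.846, 0.606 and 0.645 in the XEN libraries. All 3 XEN libraries were under 1 CPM (log2 fold change -8.04 ± 0.13 (SE), edgeR adjusted p = 7.87e-26). Slc7a1 encodes CAT-1, the broadly expressed carrier of the same substrates. It was at 252, 261 and 254 CPM in the ES libraries and 397, 378 and 434 in the XEN libraries and rose by less than 2-fold (log2 fold change 0.65 ± 0.06 (SE), edgeR adjusted p = 3.01e-11). Slc7a2, for CAT-2, was low in both, at 0.385 ± 0.0342 CPM in ES and 1.14 ± 0.231 in XEN cells, and was called higher (edgeR adjusted p = 9.21e-05). In the test against 2-fold its call (edgeR glmTreat adjusted p = 0.0303) was lost in 10 of 15 alternatives, over which the adjusted p ran from 0.0146 to 1: with upper-quartile or no composition factors, a replicate block (adjusted p = 0.0522), DESeq2, limma-voom and limma-trend, and without ES library B or C or XEN library A or B (adjusted p 0.0531 to 0.0979). Slc7a3 held 70.0% ± 0.498 in ES and 0.559% ± 0.111 in XEN cells of the summed FPKM of these 3 genes. Their sum was 127 ± 2.26 in ES and 55.1 ± 3.70 in XEN cells, lower in XEN cells although Slc7a1 was higher there. The CAT-like orphan genes Slc7a4 and Slc7a14 were under 1 CPM in both groups. Slc7a4 was at 0.579 ± 0.130 CPM in ES and 0.190 ± 0.0779 in XEN cells and Slc7a14 at 0.608 ± 0.0725 CPM in ES and 0.287 ± 0.00993 in XEN cells. Slc7a4 was called lower (edgeR adjusted p = 0.00243), but not with XEN library B alone against the ES libraries (edgeR adjusted p = 0.141, range over the alternatives 0.00116 to 0.141). For Slc7a14 the call (edgeR adjusted p = 0.0115) was lost with DESeq2 (adjusted p = 0.0773), and over the alternatives its adjusted p ran from 0.00467 to 0.109.

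In the Slc38 family, which holds sodium-coupled carriers of small neutral amino acids, 7 of 8 tested members rose in XEN cells, 4 of them past 2-fold, where 42.0% of all tested genes rose and 19.3% did so past 2-fold. Slc38a2 encodes SNAT2, a system A carrier that concentrates alanine, serine and glutamine and is known to be induced by amino acid shortage. It was at 193, 183 and 191 CPM in the ES libraries and 717, 700.1 and 796 in the XEN libraries (log2 fold change 1.96 ± 0.06 (SE), edgeR adjusted p = 7.02e-19). Slc38a1, for the related SNAT1, was at 161, 168 and 171 CPM in the ES libraries and 653, 612 and 659 in the XEN libraries (log2 fold change 1.94 ± 0.04 (SE), edgeR adjusted p = 1.91e-20). Groups were far apart for both genes. The log2 ratio of Slc38a1 to Slc38a2 FPKM was -0.83 ± 0.07 in ES and -0.83 ± 0.07 in XEN cells, a change of 0.00 ± 0.06 (SE). Slc38a5, for the system N glutamine carrier SN2, rose from 0.0888 ± 0.0437 to 11.3 ± 0.815 CPM (log2 fold change 6.90 ± 0.22 (SE), edgeR adjusted p = 6.91e-17), with 2, 3 and 1 counts in the ES libraries. Slc38a3, for SN1, was the member that fell, from 0.695 ± 0.0446 to 0.269 ± 0.0658 CPM (log2 fold change -1.34 ± 0.16 (SE), edgeR adjusted p = 0.00211). With XEN library B alone its adjusted p was 0.0511 by edgeR, the highest of a range that began at 0.000195.

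The members of this family that act inside the cell changed by less. Slc38a7 exports glutamine from lysosomes. It was at 57.2, 58.3 and 60.3 CPM in the ES libraries and 90.2, 96.3 and 96.3 in the XEN libraries (log2 fold change 0.69 ± 0.04 (SE), edgeR adjusted p = 5.11e-12). Slc38a9, the lysosomal carrier through which mTORC1 senses arginine, went from 10.5 ± 0.722 to 15.5 ± 0.329 CPM (log2 fold change 0.56 ± 0.06 (SE), edgeR adjusted p = 2.65e-06). Slc38a10, whose role is less well known, was at 104, 104 and 104 CPM in the ES libraries and 148, 151 and 148 in the XEN libraries (log2 fold change 0.51 ± 0.01 (SE), edgeR adjusted p = 5.73e-11). None of these 3 passed the test against 2-fold, while Slc38a6 did. The latter was at 9.17, 8.54 and 8.65 CPM in the ES libraries and 25.4, 23.9 and 22.0 in the XEN libraries (log2 fold change 1.44 ± 0.07 (SE), edgeR adjusted p = 3.96e-13). Slc38a8 and Slc38a11 had at most 3 counts in a library.

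Among the glutamate transporters of the Slc1 family, Slc1a1 led in ES cells and Slc1a3 in XEN cells. Slc1a3 encodes GLAST, a high-affinity carrier of glutamate and aspartate. It was at 0.691, 0.654 and 0.826 CPM in the ES libraries and 53.0, 50.2 and 52.5 in the XEN libraries (log2 fold change 6.15 ± 0.09 (SE), edgeR adjusted p = 2.3e-22). Slc1a1, for EAAC1, a carrier of glutamate, aspartate and cysteine, fell from 7.24 ± 1.07 to 0.477 ± 0.168 CPM (log2 fold change -3.91 ± 0.27 (SE), edgeR adjusted p = 3.53e-13). In its case 1216 exon bases are shared with 4430402I18Rik on the opposite strand. The summed FPKM of the 5 glutamate transporter genes was 2.45 ± 0.328 in ES and 12.3 ± 0.354 in XEN cells. Slc1a1 held 85.6% ± 1.08 in ES and 1.02% ± 0.301 in XEN cells of that sum and Slc1a3 7.65% ± 0.658 in ES and 97.8% ± 0.485 in XEN cells. Slc1a2, for GLT-1, was at 0.474 ± 0.0358 CPM in ES and 0.709 ± 0.314 in XEN cells and was not called (edgeR adjusted p = 0.131). Without XEN library C it was called higher, with a log2 fold change of 0.87 (edgeR adjusted p = 0.0302), while over the alternatives its adjusted p ran from 0.0294 to 0.648. Slc1a6 had 4, 6 and 4 counts in the ES libraries and 0 in every XEN library, at least 4.34-fold lower there against a floor of 3 counts over the group. Slc1a7 had 1 count summed over ES libraries against 15 in XEN libraries, a ratio of 16.1 with an exact (Clopper-Pearson) 95% interval of 2.48 to 679. Such intervals and floors cover counting error only.

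The neutral amino acid exchangers of the same family differed little or not detectably. Slc1a5 encodes ASCT2, which exchanges glutamine for other neutral amino acids. It was at 128, 132 and 125 CPM in the ES libraries and 84.7, 84.1 and 86.8 in the XEN libraries. It fell by less than 2-fold (log2 fold change -0.59 ± 0.03 (SE), edgeR adjusted p = 2.18e-11). Slc1a4 encodes ASCT1, which exchanges serine, alanine and cysteine. It was at 34.4, 34.2 and 32.9 CPM in the ES libraries and 25.0, 33.1 and 43.8 in the XEN libraries, and was not called (log2 fold change 0.00 ± 0.23, edgeR adjusted p = 0.995). Its ES values lay within the wide range of its XEN values.

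In the Slc6 family, whose members couple uptake to sodium and chloride, 5 of 10 tested members rose and 4 fell, all 9 past 2-fold. Of all tested genes 42.0% rose and 46.7% fell, and 42.7% passed 2-fold in either direction. The most abundant were the carriers of substrates that are not used to build protein. Slc6a6, the taurine transporter, was at 312, 312 and 308 CPM in the ES libraries and 141, 139 and 131 in the XEN libraries (log2 fold change -1.19 ± 0.03 (SE), edgeR adjusted p = 3.47e-17). Slc6a8, the creatine transporter, was at 239.6, 264 and 252 CPM in the ES libraries and 77.3, 78.3 and 70.0 in the XEN libraries (log2 fold change -1.74 ± 0.07 (SE), edgeR adjusted p = 6.83e-18). Both were lower in every XEN library. Slc6a15, a carrier of branched-chain amino acids and proline, was at 9.91, 9.24 and 9.65 CPM in the ES libraries and 39.2, 35.7 and 38.7 in the XEN libraries (log2 fold change 1.98 ± 0.05 (SE), edgeR adjusted p = 1.09e-16). The vesicular neutral amino acid carrier Slc6a17 rose from 0.118 ± 0.0222 to 8.60 ± 1.57 CPM, and the orphan Slc6a16 from 0.474 ± 0.0708 to 1.98 ± 0.272 CPM.

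Among transporters better known from the nervous system, Slc6a7, the proline transporter, had 232, 256 and 219 counts in the ES libraries and 2, 0 and 1 in the XEN libraries. The ratio of summed counts was 219 in favour of ES cells, with a 95% interval of 74.6 to 1065. Slc6a11, a GABA transporter gene, had 1 count summed over ES libraries against 95 in XEN libraries, a ratio of 102 with an interval of 17.9 to 4079. Slc6a2, the noradrenaline transporter, had 0 counts in every ES library and 20, 21 and 23 in the XEN libraries, at least 23.0-fold higher. Slc6a9, the glycine transporter GLYT1, was at 10.7, 11.2 and 9.61 CPM in the ES libraries and 6.25, 9.09 and 14.6 in the XEN libraries and was not called (edgeR adjusted p = 0.834). Without XEN library C, which was its highest, its log2 fold change was -0.45 (edgeR adjusted p = 0.00842), and over the alternatives its adjusted p ran from 0.00842 to 0.976. Its exons overlap Ccdc24 on the opposite strand, which went from 0.767 ± 0.205 to 4.09 ± 0.296 CPM. The other 7 members of the family, among them the dopamine, serotonin and GLYT2 transporter genes, were under the filter on low counts.

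The small Slc36 and Slc43 families each changed in both directions. Slc36a1, for the proton-coupled carrier PAT1 of lysosomes and the cell surface, rose from 24.5 ± 1.80 to 40.6 ± 1.76 CPM (log2 fold change 0.73 ± 0.07 (SE), edgeR adjusted p = 5.49e-10). Slc36a4, for PAT4, was at 1.34, 0.828 and 1.17 CPM in the ES libraries and 38.3, 36.5 and 37.7 in the XEN libraries (log2 fold change 5.07 ± 0.19 (SE), edgeR adjusted p = 2.03e-20). Slc36a3, an orphan, had 55 counts summed over ES libraries against 2 in XEN libraries, a ratio of 25.6 with an interval of 6.75 to 216. Slc43a1, for LAT3, a carrier of branched-chain amino acids and phenylalanine, rose from 1.10 ± 0.366 to 15.1 ± 1.46 CPM (log2 fold change 3.77 ± 0.29 (SE), edgeR adjusted p = 9.52e-15). Slc43a2, for the related LAT4, fell from 18.3 ± 0.583 to 8.33 ± 1.01 CPM (log2 fold change -1.13 ± 0.10 (SE), edgeR adjusted p = 2.18e-10), and Slc43a3 fell from 1.65 ± 0.117 to 0.380 ± 0.201 CPM (log2 fold change -2.10 ± 0.33 (SE), edgeR adjusted p = 1.98e-06).

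**Figure D3:**
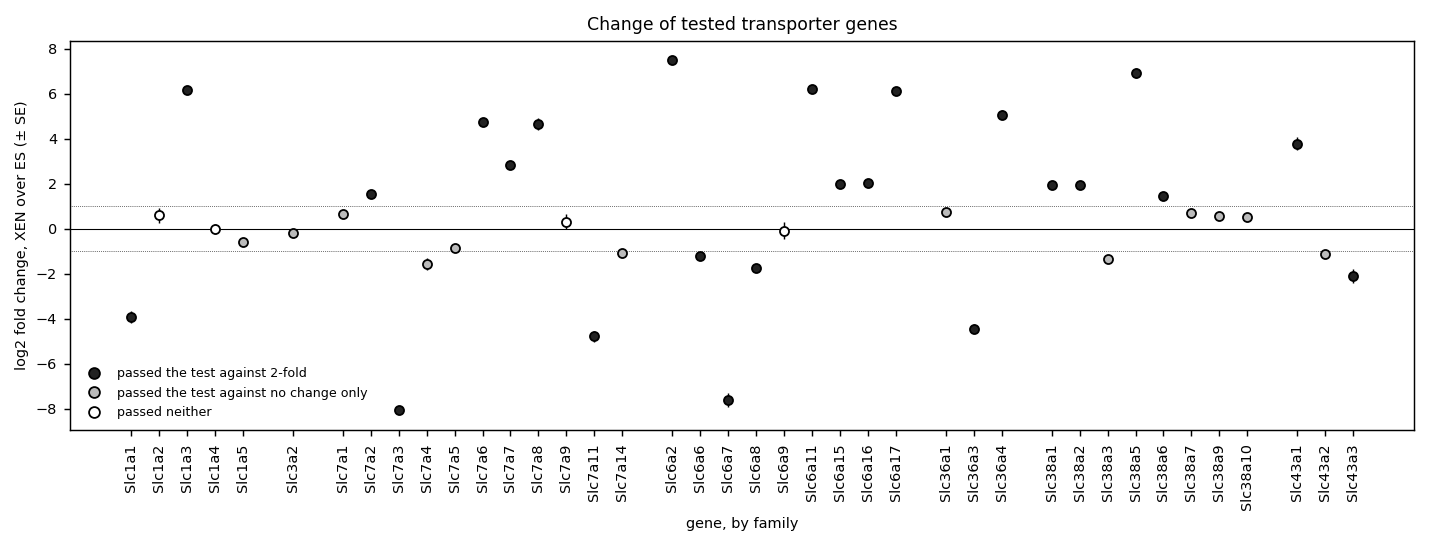
Log2 fold change of XEN over ES cells for 40 tested genes, by family, with an SE from log2 CPM (prior count 2). That SE is too small where a group has few counts, as for Slc6a2 (SE 0.08, 0 counts in every ES library). Dotted lines mark a 2-fold change. Black points (24) passed the test against 2-fold, grey points (12) only the test against no change, and white points (4) neither; the points for Slc6a2, Slc6a7, Slc6a11 and Slc36a3 depend on the prior count, since 1 group had 0 to 3 counts.

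Related carriers were also compared within libraries. For 10 pairs of members, the log2 ratio of their FPKM (pseudocount 0.1) was taken in each library, and in 8 pairs the ES and XEN ratios did not overlap. No such share was taken for other pairs of genes. Of all single genes tested, 42.4% lay higher and 47.0% lower in XEN cells without overlap, so the 8 cannot be called particular to these carriers. The ratio of Slc7a1 to Slc7a3 was -1.22 ± 0.03 in ES and 7.08 ± 0.22 in XEN cells, a change of 8.30 ± 0.13 (SE). For Slc1a3 to Slc1a1 it was -2.93 ± 0.14 in ES and 5.76 ± 0.22 in XEN cells, a change of 8.69 ± 0.15 (SE). The size of both changes depends on the pseudocount. Slc7a3 was at 0.37, 0.27 and 0.28 FPKM in the XEN libraries. Slc1a3 was at 0.18, 0.17 and 0.21 FPKM in the ES libraries and Slc1a1 at 0.17, 0.09 and 0.12 in the XEN libraries. In both pairs the sign of the ratio differed between the cell types, so that another member led. For Slc7a5 to Slc7a8 it was 8.03 ± 0.24 in ES and 2.92 ± 0.65 in XEN cells, a change of -5.11 ± 0.40 (SE). For Slc43a1 to Slc43a2 it was -2.39 ± 0.44 in ES and 2.24 ± 0.06 in XEN cells, a change of 4.62 ± 0.26 (SE), and for Slc36a1 to Slc36a4 4.02 ± 0.14 in ES and 0.19 ± 0.08 in XEN cells, a change of -3.84 ± 0.09 (SE). The sizes of these changes depend on the pseudocount too. In the ES libraries Slc7a8 was at 0.29, 0.37 and 0.25 FPKM, Slc36a4 at 0.26, 0.16 and 0.22 and Slc43a1 at 0.29, 0.57 and 0.52. In these pairs only Slc43a1 and Slc43a2 changed their order. Slc7a6 and Slc7a7 changed their order as well. Slc7a6 rose more than Slc7a7, with a ratio of -0.68 ± 0.09 in ES and 1.15 ± 0.08 in XEN cells, a change of 1.83 ± 0.07 (SE). Slc7a11 to Slc7a5 was -6.92 ± 0.07 in ES and -8.70 ± 0.38 in XEN cells, a change of -1.78 ± 0.22 (SE), with Slc7a11 under the pseudocount in XEN cells, and with a pseudocount of 1 FPKM the change was 0.20 (exact permutation p = 0.4). The ratio of Slc1a5 to Slc1a4 was 2.44 ± 0.03 in ES and 1.88 ± 0.38 in XEN cells, a change of -0.56 ± 0.22 (SE). For each of these 8 changes the exact permutation test, two-sided, gave p = 0.1 (0.125 adjusted over the 10 pairs); with 20 ways to split the libraries 3 against 3, p cannot be lower. The pair Slc3a2 to Slc3a1 overlapped between groups (exact permutation p = 0.2), and so did Slc38a1 to Slc38a2 (exact permutation p = 1). Slc3a1 was at 0.04 FPKM or less in every library, under the pseudocount, so its pair cannot show a balance of the heavy chains.

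The XEN libraries differed among themselves in several carriers. XEN library C was highest and A lowest by at least 1.5-fold for Slc1a4 and Slc6a9, and the reverse held for Slc7a8. These were 3 of the 25 members that averaged 5 CPM or more in XEN cells, beside 44 of 9748 tested genes (0.451%). Among 23 members at that level in ES cells, 0 differed in this way between ES libraries. Of 20 genes of the amino acid starvation response at that level, 3 had C highest and A lowest. Atf4, the transcription factor of that response, was at 212, 273 and 329 CPM in XEN libraries A, B and C. Its target Trib3, a pseudokinase gene, was at 5.88, 10.2 and 14.5 CPM, and Chac1, a glutathione-degrading enzyme gene, at 2.30, 8.72 and 14.0 CPM. Asns, asparagine synthetase, was at 219, 251 and 318 CPM. Atf4 and Chac1 themselves were not called between the cell types (edgeR adjusted p = 0.24 and 0.275). The 1.5-fold limit was chosen after these values were seen, and the part of this spread in the results was not tested.

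**Figure D4:**
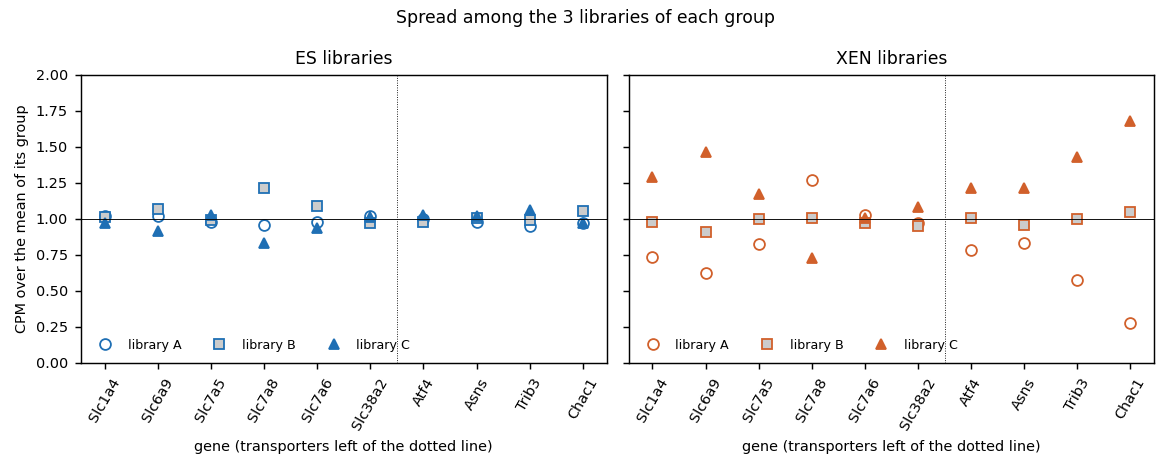
CPM of each library divided by the mean of its group, for 6 transporter genes and 4 genes of the starvation response, in ES (left) and XEN (right) libraries. XEN libraries A and C lie on opposite sides of the mean for Slc1a4, Slc6a9, Slc7a5, Slc7a8, Atf4, Asns, Trib3 and Chac1. They also do so for Slc38a2, but by less, and Slc7a6 varies little.

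Promoter sequence was looked at because ATF4 with C/EBP proteins binds a composite element, abbreviated CARE, in several carrier genes. RefSeq promoter windows (GRCm38.p6, 250 bases before to 50 after a start site) were found for 39 of the 55 members. The other 16 were not searched, among them Slc7a5, Slc7a3, Slc38a1, Slc1a5, Slc6a6 and Slc6a8. The letters TGATGNAA, on either strand, stood in 5 of 54 member windows, from 4 genes, and in 3.97% of all 32851 windows. The 4 genes were Slc7a11, Slc1a4, Slc7a7 and Slc6a21. Whether a match bears on the levels was not tested, and neither was the use of start sites in these cells. Shown are 150 bases before to 20 after the start for the 3 tested ones, with matches in capitals.
Slc7a11 (chr3:50443594-50443763, minus strand): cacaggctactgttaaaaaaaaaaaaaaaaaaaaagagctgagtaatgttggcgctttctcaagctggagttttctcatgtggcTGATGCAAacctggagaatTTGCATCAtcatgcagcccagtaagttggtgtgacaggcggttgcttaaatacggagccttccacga
Slc1a4 (chr11:20332694-20332863, minus strand): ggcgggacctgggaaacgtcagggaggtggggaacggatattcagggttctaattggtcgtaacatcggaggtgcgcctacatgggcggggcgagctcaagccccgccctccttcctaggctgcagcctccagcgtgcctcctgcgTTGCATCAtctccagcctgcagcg
Slc7a7 (chr14:54417925-54418094, minus strand): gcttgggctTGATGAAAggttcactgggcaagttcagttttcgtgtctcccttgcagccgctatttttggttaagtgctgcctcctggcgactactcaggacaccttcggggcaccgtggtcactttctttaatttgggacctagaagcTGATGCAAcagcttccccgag
Slc7a11, which fell, has a match on each strand, at 66 to 59 and at 47 to 40 bases before the start. Slc1a4, which was not called and varied among XEN libraries, has a match across its start site. Slc7a7, which rose, has a match at 141 to 134 bases before the farthest upstream of its 5 listed starts and another across that start. The antioxidant response element core TGACNNNGC stood in 11 of the 54 windows, from 9 genes (background 12.4%), with Slc7a6, Slc38a2 and Slc7a1 among them. The E-box CACGTG stood in 9 windows from 9 genes (background 7.15%). Of these, Slc38a7, Slc38a5, Slc36a1, Slc43a1 and Slc6a16 were called higher in XEN cells and Slc7a14 lower, and Slc1a6, Slc1a7 and Slc6a3 were under the filter. Matches of the 3 motifs were counted separately, overlaps included; a match is a description of letters and no evidence of binding.

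Lists of related genes are given beside the shares for all tested genes, of which 42.0% rose and 46.7% fell. Of 29 genes of lysosomal amino acid sensing, 11 rose (background 42.0%), 14 fell (background 46.7%) and 4 did not pass, near the background, with a median log2 fold change of -0.06 beside -0.07 for all tested genes. The products of the 4 Rag GTPase genes recruit mTORC1 to lysosomes. Rragb and Rragd fell by a large factor: Rragb went from 76.5 ± 2.75 to 6.60 ± 0.480 CPM, and Rragd from 88.7 ± 3.84 to 8.41 ± 0.372 CPM. Rraga fell less, from 69.5 ± 2.95 to 56.3 ± 3.63 CPM, and Rragc rose from 79.3 ± 2.09 to 117 ± 2.91 CPM. Gatsl3, the gene for an arginine sensor of the CASTOR type, fell from 35.9 ± 2.02 to 6.10 ± 0.440 CPM, whereas its relative Gatsl2 rose from 2.64 ± 0.444 to 16.3 ± 0.115 CPM. Of 8 GATOR subunit genes 4 rose, 2 fell and 2 did not pass. Sec13 and Nprl3 rose: Sec13 went from 70.2 ± 2.38 to 225 ± 9.48 CPM, and Nprl3 from 11.1 ± 0.367 to 32.4 ± 1.95 CPM. Mios and Nprl2 also rose, Seh1l fell from 178 ± 1.32 to 138 ± 4.06 CPM and Wdr59 from 31.9 ± 1.11 to 26.7 ± 2.00 CPM, while Depdc5 and Wdr24 were not called. Rraga, Rragc and the last 6 of these subunits are named outside the rule, after their values were seen. Of 22 tested genes of the starvation response, 4 rose (background 42.0%) and 13 fell (background 46.7%), with a median of -0.44 on the log2 scale. Named among those that fell are Atf5, a factor of the ATF4 type, from 118 ± 3.81 to 18.7 ± 0.791 CPM, Trib3 from 54.4 ± 3.08 to 10.2 ± 4.34 CPM and Asns from 1231 ± 27.2 to 263 ± 50.5 CPM. Named among those that rose are Atf3, a factor of the stress response, from 7.42 ± 0.418 to 52.9 ± 6.14 CPM, Vldlr, a lipoprotein receptor, from 8.29 ± 0.485 to 26.2 ± 3.93 CPM, and Phgdh, the first enzyme of serine synthesis, from 117 ± 1.66 to 220.4 ± 11.1 CPM.

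Of 13 tested genes of glutathione synthesis and turnover, for which xCT supplies cystine, 3 rose (background 42.0%) and 8 fell (background 46.7%; median -0.78 on the log2 scale). Gss, glutathione synthetase, fell from 77.4 ± 0.551 to 25.4 ± 1.63 CPM, Gsr, glutathione reductase, from 142 ± 3.63 to 57.1 ± 5.44 CPM and Nfe2l2, the factor NRF2, from 216 ± 2.45 to 105 ± 1.97 CPM. Ggt1, which cleaves glutathione outside the cell, rose from 2.94 ± 0.769 to 11.8 ± 1.05 CPM, and Keap1, the inhibitor of NRF2, from 42.9 ± 0.832 to 59.4 ± 1.67 CPM. Among 15 tested genes of other carriers and partners, 7 rose (background 42.0%) and 5 fell (background 46.7%; median 0.18 on the log2 scale). Slc16a10, a carrier of aromatic amino acids, rose from 0.771 ± 0.291 to 13.2 ± 0.394 CPM, the mitochondrial glutamate carrier Slc25a22 from 23.8 ± 1.84 to 106 ± 5.88 CPM and the lysosomal cystine exporter Ctns from 35.3 ± 0.723 to 153 ± 3.52 CPM. The largest falls on the list were of peptide transporters, named after their values were seen because their mean over both groups was under 5 CPM: Slc15a1 fell from 6.31 ± 0.109 to 0.0155 ± 0.0269 CPM and Slc15a2 from 1.31 ± 0.374 to 0.0946 ± 0.0457 CPM. The mitochondrial aspartate-glutamate carriers Slc25a13 and Slc25a12 fell: Slc25a13 went from 126 ± 1.11 to 49.3 ± 3.14 CPM, and Slc25a12 from 34.6 ± 1.34 to 26.6 ± 1.49 CPM. So did the glycine carrier Slc25a38, from 25.0 ± 1.74 to 15.1 ± 1.18 CPM.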

How the data were processed

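Each of the 6 libraries, made from mouse RNA and read on a BGISEQ-500 instrument, has its own gene table, and groups follow the titles. The tools Bowtie2, RSEM and DESeq2 and the build mm9 are named, without versions or roles, per the submitters' processing notes. The deposited tables hold expected counts, which need not be whole. They also hold FPKM as computed by the authors. Genes missing from a library's table were set to 0. For 9 members the tables list a transcript that the authors added. These are Slc3a2, Slc7a6, Slc7a7, Slc6a6, Slc6a7, Slc6a16, Slc38a6, Slc38a7 and Slc43a1. The light chain shares and their ratio to the heavy chain rest on the first 3. How far the added transcripts bear on FPKM was not tested.

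Expected counts were rounded, filtered with filterByExpr (13581 genes kept), scaled by TMM (factors 0.951 to 1.05) and tested with the edgeR 4.0.16 quasi-likelihood F test (robust, R 4.3.3), adjusted by Benjamini-Hochberg over all tested genes at 0.05; glmTreat tested against 2-fold. CPM uses the scaled totals; 3 counts come to 0.134 to 0.145 CPM before scaling. Errors of levels are SDs over 3 libraries, and SEs of log2 fold changes reflect how log2 CPM, with a prior count of 2, varied over libraries. For genes with few counts in a group, the prior count makes these SEs too small. Pairs within a group gave a chi-square over its degrees of freedom of at least 2.44, so no pair agreed within sampling noise. The fit was tested on simulated data.

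The alternatives tried were scaling by RLE, by the upper quartile or by totals alone, other filters, DESeq2 1.42.0, limma 3.58.1 (voom, and trend on log2(FPKM + 1)), a replicate block, leaving out each library, and other pseudocounts for pairs; XEN library B alone was added after seeing the data. Named by rule are members that average 1 CPM or more in a group; the 6 tested members under it, and Slc1a6, Slc1a7 and others under the filter, were named after their values were seen, to account for every member; values per library are given for those past 2-fold with a mean of at least 20 CPM in a group and for the 10 highest by FPKM in each group; other genes given per library, and sums over carriers, were chosen after the values were seen. Of related lists, up to 3 called genes in each direction with a mean over both groups of at least 5 CPM are named. Of the tested members, 1 that the totals include is not reported here. Members and lists were chosen with earlier results of these data known. Exon overlap was read from GENCODE M21 (GRCm38), for gene names only.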

Additional observations from a re-analysis of the deposited data

How the results depend on the processing

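No transporter gene that was called, in the main fit or in an alternative, changed direction. Genes that were not called could do so. Over all alternatives, XEN library B alone included, the log2 fold change ran from -0.22 to 0.18 for Slc1a4. For Slc6a9 it ran from -0.45 to 0.17. Over 15 alternatives, 601 of 605 values of single transporter genes kept their side of the threshold. The exceptions were Slc7a14, lost with DESeq2 (adjusted p = 0.0773) and with limma-trend (adjusted p = 0.109), and Slc1a2 and Slc6a9, gained without XEN library C. With XEN library B alone, an alternative chosen after seeing the data in which that library is assumed to vary like the others, Slc7a4, Slc7a14 and Slc38a3 were lost and Slc1a2 was gained. By family, the number of Slc1 genes called higher was 2 with no filter and 2 with XEN library B alone, and ranged from 1 to 2 when 1 library was left out. With a mean of at least 1 CPM, which tests fewer genes, 3 Slc6 genes were called higher, and 3 Slc7, 0 Slc36 and 0 Slc38 genes lower. With XEN library B alone, 3 Slc7 and 0 Slc38 genes were called lower. Past 2-fold, 11 members were higher and 5 lower with limma-trend on log2(FPKM + 1), a scale that shrinks changes of low genes. Slc7a2 lost its 2-fold call in 10 of 15 alternatives, and Slc43a2 and Slc7a4 gained one in 4 of 16 and 3 of 14. The Slc7a11 to Slc7a5 ratio changed by 0.20 with a pseudocount of 1 FPKM. The Slc38a1 to Slc38a2 ratio changed by -0.05 to 0.03 when 1 library was left out. Upper-quartile scaling moved the median log2 fold change of all genes from -0.07 to -0.21, and 21 members were called higher and 16 lower. Library letters did not pair the libraries (correlations 0.03, -0.07 and 0.04 for equal letters, and not every library correlated best with its own letter), and with a replicate block 21 members were called higher and 16 lower. Depth limits what can be said of the 14 members under the filter.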

Other observations

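AU018091, named after its values were seen, is no member by its symbol but carries the same orthology term in the deposited tables as Slc7a3. It had 3153, 3567 and 3470 counts in the ES libraries and 6, 1 and 2 in the XEN libraries, or 151 ± 5.08 and 0.143 ± 0.124 CPM (edgeR adjusted p = 3.31e-24). How reads were divided between it and Slc7a3 is uncertain.

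In RefSeq's gene order Slc38a1, Slc38a2 and Slc38a4 are neighbours. Slc38a4, the imprinted gene left out of the members, had 336, 369 and 365 counts in the ES libraries and 0 in every XEN library, while its neighbours Slc38a1 and Slc38a2 were higher in XEN cells. Slc43a1 and Slc43a3, which lie 1 gene apart, differed in opposite directions.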
